A study of Homo sapiens with 9 samples.

Results

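This account follows 35 genes of glycolysis and of the response to low oxygen in the Hodgkin lymphoma line L-1236 after Cas9 was aimed at LTA, the gene of the secreted cytokine lymphotoxin alpha. The members were chosen by gene symbol in the array annotation, and 34 of the 35 were measured. CA9 is not analysed here. The 34 stand among 17687 genes with a symbol and 20893 tested transcript clusters, the units that a Clariom S array summarises from several probes each. No member had more than 1 row.

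Clone g2_1 carried the lentiCRIPSPR v2 vector with a guide against exon 2 of LTA and was hybridised on 3 arrays. Clone g3_4 carried the same vector with a guide against exon 4 and was also hybridised on 3 arrays. The control, called v2 in the descriptions and wild type in the titles, carried the vector without an LTA guide as far as its labels say, and gave 3 arrays. Each knockout line is a single clone, so a property of the clone cannot be told apart from an effect of the guide. The clones had been maintained in medium conditioned by L-1236 cells, and RNA came from cells after 72 h in fresh RPMI with serum. Whether control cells had also been in conditioned medium, or were a single clone, is not given in the sources used here, and handling and genotype cannot be told apart to that extent. No label says that arrays of a group were separate cultures, so every p-value measures the spread between these arrays, which may be technical.

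Glycolysis splits glucose into pyruvate in a chain of enzymes, most of which exist as several isozymes encoded by separate genes. Pyruvate is then reduced to lactate or enters the mitochondrion through pyruvate dehydrogenase, which pyruvate dehydrogenase kinases switch off. Low oxygen stabilises the alpha subunits of the hypoxia-inducible factors (HIF), which bind the core letters ACGTG or GCGTG near many glycolytic genes and near genes of iron handling, mitophagy and collagen hydroxylation. Many tumour cells ferment glucose to lactate also where oxygen is present. Whether L-1236 cells do so was not measured here.

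Promoter windows of called members that have a single RefSeq window are printed to show the letters that HIF can bind, in genes that moved in opposite directions. Each window covers 250 bases before and 50 after the start of the gene in assembly GRCh38.p14. Capitals mark ACGTG and GCGTG on either strand, and CACGTG, which also is the core bound by proteins of the MYC and MAX family, counts for both strands. The first 4 genes fell in the clones by at least 1 log2 unit and the last 3 rose.

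EPAS1, chr2:46297157-46297456, plus strand: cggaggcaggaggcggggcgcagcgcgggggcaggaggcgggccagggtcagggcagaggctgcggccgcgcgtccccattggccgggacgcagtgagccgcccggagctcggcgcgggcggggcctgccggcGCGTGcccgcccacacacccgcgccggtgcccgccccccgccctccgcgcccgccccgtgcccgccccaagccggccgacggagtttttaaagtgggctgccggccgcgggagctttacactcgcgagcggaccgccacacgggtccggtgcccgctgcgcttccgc

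ALDOC, chr17:28576846-28577145, minus strand: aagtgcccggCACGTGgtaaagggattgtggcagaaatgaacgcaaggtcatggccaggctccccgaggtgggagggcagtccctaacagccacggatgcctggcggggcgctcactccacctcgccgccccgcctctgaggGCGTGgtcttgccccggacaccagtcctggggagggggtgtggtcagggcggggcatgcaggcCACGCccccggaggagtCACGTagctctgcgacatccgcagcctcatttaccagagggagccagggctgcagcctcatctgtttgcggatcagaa

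PDK3, chrX:24465036-24465335, plus strand: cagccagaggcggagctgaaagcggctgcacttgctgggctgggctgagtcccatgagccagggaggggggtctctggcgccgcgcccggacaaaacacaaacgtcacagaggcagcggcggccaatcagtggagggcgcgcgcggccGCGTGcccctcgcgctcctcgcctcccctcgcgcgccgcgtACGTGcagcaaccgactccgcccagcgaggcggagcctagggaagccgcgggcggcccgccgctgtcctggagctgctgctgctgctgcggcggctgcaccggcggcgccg

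BNIP3, chr10:131981874-131982173, minus strand: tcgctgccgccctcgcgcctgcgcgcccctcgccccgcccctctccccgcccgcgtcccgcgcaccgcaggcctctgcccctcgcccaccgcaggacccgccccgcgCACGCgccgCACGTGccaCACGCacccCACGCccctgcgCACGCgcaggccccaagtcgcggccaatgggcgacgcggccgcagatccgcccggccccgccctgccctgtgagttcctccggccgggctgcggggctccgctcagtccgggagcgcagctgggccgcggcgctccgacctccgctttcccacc

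SLC2A1, chr1:42958819-42959118, minus strand: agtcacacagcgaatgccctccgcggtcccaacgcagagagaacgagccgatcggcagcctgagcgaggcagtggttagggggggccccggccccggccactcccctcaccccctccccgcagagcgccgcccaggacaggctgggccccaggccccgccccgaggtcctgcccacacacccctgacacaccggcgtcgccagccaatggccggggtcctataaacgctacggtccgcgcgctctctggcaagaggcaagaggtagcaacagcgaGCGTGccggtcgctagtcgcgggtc

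PFKL, chr21:44299803-44300102, plus strand: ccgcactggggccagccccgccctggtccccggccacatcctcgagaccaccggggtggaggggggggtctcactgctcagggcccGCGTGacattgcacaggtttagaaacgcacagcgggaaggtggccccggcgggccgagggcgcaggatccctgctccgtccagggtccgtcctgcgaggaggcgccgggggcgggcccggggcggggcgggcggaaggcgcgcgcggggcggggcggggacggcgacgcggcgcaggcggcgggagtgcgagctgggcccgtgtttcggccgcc

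PGAM1, chr10:97427568-97427867, plus strand: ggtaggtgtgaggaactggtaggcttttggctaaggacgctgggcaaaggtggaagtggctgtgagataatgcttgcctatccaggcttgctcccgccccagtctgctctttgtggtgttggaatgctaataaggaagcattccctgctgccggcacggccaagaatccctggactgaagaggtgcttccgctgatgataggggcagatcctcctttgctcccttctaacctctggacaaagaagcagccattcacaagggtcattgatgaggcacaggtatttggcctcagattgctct

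The ALDOC window held 3 matches to ACGTG and 2 to GCGTG, and the BNIP3 window 2 and 4. The PDK3 window held 1 of each. The windows of EPAS1, SLC2A1 and PFKL held 1 GCGTG each, and that of PGAM1 held 0 of both. Of all 35116 RefSeq windows of this length, 48.4% held either core and 21.4% held ACGTG. Among members with a window, some of them with several, ACGTG was found for 6 of 7 genes that fell, 1 of 5 that rose and 11 of 18 that were not called. In windows, these were 6 of 10, 1 of 8 and 15 of 37. A match is only a run of letters, and the windows leave out more distant sites.

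LTA itself was read first, as a check of the labels. Its RMA log2 signal was 7.97, 7.53 and 7.11 on the g2_1 arrays and 6.94, 7.25 and 6.61 on the g3_4 arrays, against 11.58, 11.07 and 11.08 on the control arrays. Every knockout array was thus lower than every control array, in the direction that the labels give. Array medians were 6.15 to 6.19 in the clones and 6.27 to 6.29 in the control, and first quartiles, used here as a mark of the array floor, were 4.62 to 4.66 on the 9 arrays. The RNA integrity number was 10 for array 1 of the 3 groups and between 9.5 and 9.6 for the remaining arrays. Of 9 marker genes of Hodgkin and Reed-Sternberg cells, 2 rose and 3 fell with the clones averaged. TNFRSF8, the gene of CD30, rose by 0.74 on the log2 scale and TRAF1 by 0.70, while GATA3 fell by 1.46, CCL22 by 1.18 and CCL17 by 0.95. CD70 differed between the clones, at 1.41 in g2_1 and -0.94 in g3_4 against control (adjusted p of the difference 0.0115). Of 25 markers of T cells, myeloid cells, fibroblasts, epithelium and red cells, CD2, CD68 and HBB rose and 0 fell with the clones averaged. CD3D, CD3E, CD3G, LYZ, LUM and EPCAM had group means between 3.96 and 4.88, near the array floor, and a log2 scale has no 0. CD2, CD5, CSF1R, COL1A1, COL1A2, KRT8 and HBA1 lay above the array medians in every group, with means from 6.57 for CD5 in the control to 9.40 for CD2 in g2_1. The summed log2 signal of these 25 was 137.9 to 139.5 on g2_1 arrays, 137.4 to 140.6 on g3_4 arrays and 135.4 to 136.9 on control arrays, and its part in the results was not tested. In a bulk RNA sample, fewer cells of a kind and less RNA per cell cannot be told apart.

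Against control cells, ALDOC, PFKP, PDK3 and BNIP3 fell between 2.69-fold and 6.36-fold with the clones averaged, and EPAS1 fell to levels near the array floor. The rises were smaller, at most 0.69 on the log2 scale, and included the glucose transporter gene SLC2A1 and the phosphofructokinase gene PFKL. Of 15 genes for enzymes from hexokinase to pyruvate kinase, 5 passed the test with all arrays and 10 without control array 1. GAPDH and ENO1 passed in neither case. Of the 10, PFKP, ALDOC and ENO2 fell and the others rose, where 17.8% of all transcript clusters were called. HK1 and PFKL did not pass when array 1 of each group was left out. With the clones averaged, 6 of 34 rose and 7 fell (11 and 9 without control array 1), and 18.0% of all tested transcript clusters were called, 8.13% higher and 9.83% lower. That share includes many low-signal transcript clusters. Once those with a mean signal under the median were dropped, 30 members remained, of which 7 rose and 5 fell. Of the 10448 transcript clusters kept, 30.3% were called, 16.1% higher and 14.2% lower. Unless stated, shares given elsewhere keep the low-signal transcript clusters. A gene was called at an adjusted p under 0.05 in limma, a linear model fitted to all transcript clusters, with Benjamini-Hochberg adjustment over all of them. The members that fell were EPAS1, ALDOC, PFKP, PDK3, BNIP3, ENO2 and P4HA1, and those that rose were MXI1, KDM3A, NDRG1, PFKL, SLC2A1 and PGAM1. The median log2 fold change was 0.02 for the 34 members and 0.04 for all transcript clusters. In g2_1, 5 members rose and 7 fell, where 14.3% of all transcript clusters were called (6.19% higher, 8.06% lower). In g3_4, 4 rose and 8 fell, where 14.3% were called too (6.12% higher, 8.16% lower). The count in g2_1 changed with the arrays used, as did the share of all transcript clusters. It was 7, 1 higher and 6 lower, without g2_1 array 1, g2_1 array 3 or g3_4 array 3. Of all transcript clusters 10.4%, 10.2% and 12.7% were then called. The count was 8, 1 higher and 7 lower, without g2_1 array 2 or g3_4 array 2, where 9.95% and 12.2% were called. In these settings 3.78% to 5.28% of all transcript clusters were called higher. Without control array 3 the count in g2_1 was 2 higher and 6 lower, where 14.1% of all transcript clusters were called (6.18% higher). In g3_4, 2 rose and 6 or 7 fell when any 1 of its own arrays was left out. Of all transcript clusters 10.1% to 10.5% were then called in g3_4. Both comparisons use the same control arrays. A change of at least 1 log2 unit together with the adjusted p was found for 5 members, all lower, and for 4.18% of all transcript clusters. For g2_1 alone and g3_4 alone it was also 5 members, with 4.19% and 4.24% of all transcript clusters. With each array centred on its median, which set the median of all transcript clusters to 0.15, 10 members rose and 7 fell, GPI, LDHA, PKM and SLC2A3 being gained. Of all transcript clusters 24.8% were then called, against 18.0% without centring, and 7.82% were lower, so the calls shifted towards rises among all genes too.

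The calls rest on a spread that limma shares across genes and groups. In a test that lets each group have its own variance, 0 of the 34 members passed with the clones averaged. The adjusted p of the 13 called members there ran from 0.107 for ENO2 to 0.48 for KDM3A, 8 members had an unadjusted p under 0.05, and 462 of all transcript clusters (2.21%) passed. The exact two-sided permutation p of the 13 members, and of LDHB, which was not called, was 0.0119, the smallest that 84 splits allow. It restates that the knockout and control arrays do not overlap, which held for 14 of the 34 members and for 20.4% of all transcript clusters.

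**Figure D1:**
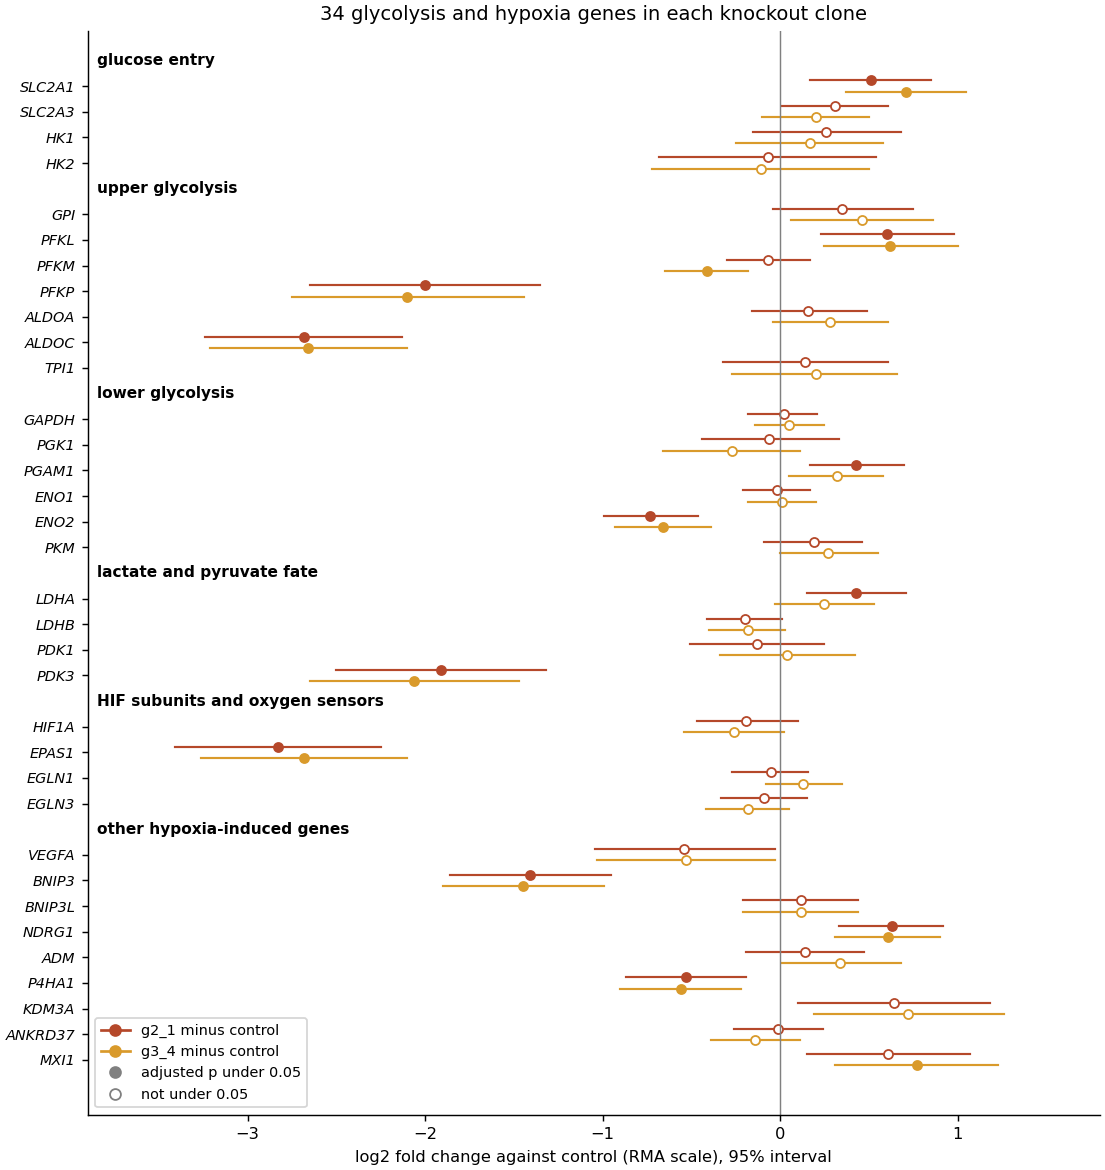
Log2 fold change of each of the 34 measured members against control, with its 95% interval from limma, for g2_1 (upper point of each gene) and g3_4 (lower point), grouped by role. Filled points have an adjusted p under 0.05. The largest falls, from EPAS1 at -2.83 and -2.68 to BNIP3 at -1.41 and -1.45, are of like size in both clones.

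**Figure D2:**
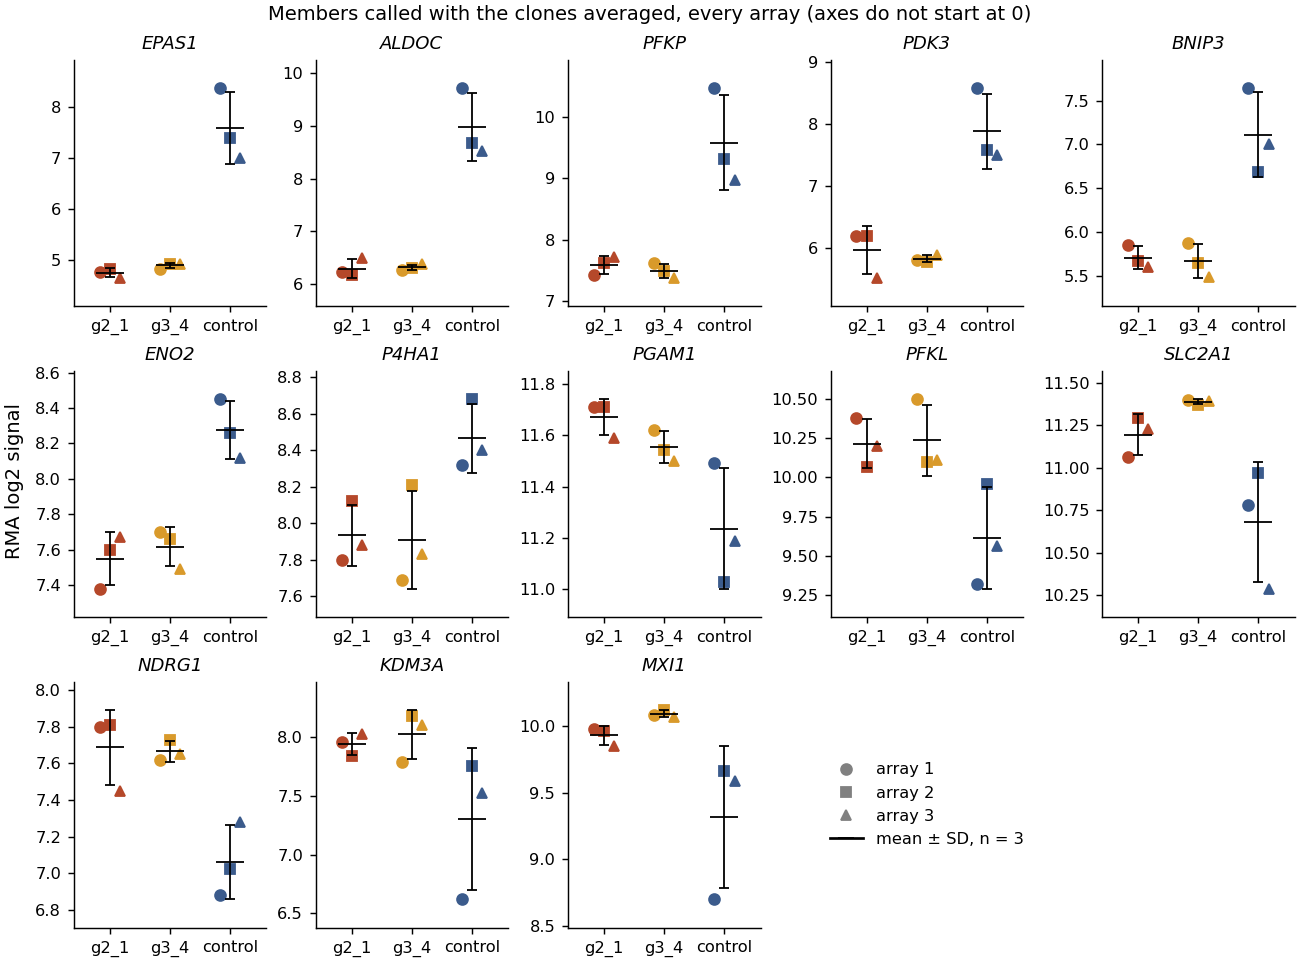
RMA log2 signal on every array for the 13 members called with the clones averaged, ordered from the largest fall (EPAS1) to the largest rise (MXI1). Symbols mark the array number, bars give the mean and SD of 3 arrays, and the axes do not start at 0. The 6 knockout arrays lie on 1 side of the 3 control arrays in every panel, and for EPAS1, ALDOC, PFKP, PDK3 and BNIP3 the control array 1 is the highest of the control arrays.

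Glucose enters through transporters and is trapped by hexokinases. SLC2A1, which encodes the widespread glucose transporter GLUT1, read 11.06, 11.29 and 11.23 in g2_1 and 11.40, 11.37 and 11.39 in g3_4, against 10.78, 10.97 and 10.29 in control cells. All knockout arrays exceeded all control arrays. The log2 fold change with the clones averaged was 0.61 (SE 0.13, adjusted p = 0.00857), a 1.53-fold rise. In g2_1 alone it was 0.51 with an adjusted p of 0.0498, and that call was lost in 11 of 19 alternatives. Without control array 3 the value in g2_1 was 0.32 (adjusted p = 0.102). SLC2A3, which encodes the high-affinity transporter GLUT3, averaged 11.17 ± 0.06, 11.05 ± 0.01 and 10.85 ± 0.30 (SD, n = 3 each) in g2_1, g3_4 and control, and did not pass. Neither did the hexokinase genes HK1, with a log2 fold change of 0.22 (SE 0.16), and HK2, with -0.09 (SE 0.24).

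Phosphofructokinase commits glucose to glycolysis, and its isozyme genes are given in turn. Differences between isozymes were not tested. PFKP, the platelet-type gene (transcript cluster TC1000012423.hg.1), read 7.43, 7.62 and 7.71 in g2_1 and 7.61, 7.48 and 7.38 in g3_4, against 10.47, 9.31 and 8.98 in control cells. The knockout arrays lay close together and well under the lowest control array. PFKP fell by 2.05 on the log2 scale with the clones averaged (SE 0.26, adjusted p = 2.41e-04), a 4.14-fold fall. PFKL, the liver-type gene, read 10.38, 10.07 and 10.20 in g2_1 and 10.50, 10.10 and 10.11 in g3_4, against 9.32, 9.96 and 9.56 in control cells. It rose by 0.61 (SE 0.15, adjusted p = 0.0144), and the gap between the lowest knockout array and control array 2 was small. The call was lost without control array 3, at 0.59 (adjusted p = 0.0504), and when array 1 of each group was left out, at 0.36 (adjusted p = 0.0849). PFKM, the muscle-type gene, averaged 8.95 ± 0.07 in g2_1, 8.61 ± 0.04 in g3_4 and 9.02 ± 0.17 in control cells (SD, n = 3 each). It was called in g3_4 at -0.41 (adjusted p = 0.0232) and not in g2_1 at -0.07 (adjusted p = 0.771), but the difference between the clones, 0.35, did not pass (adjusted p = 0.686).

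Aldolase cleaves the sugar into triose phosphates, and it showed a fall of 1 isozyme gene. ALDOC, the isozyme best known from brain (TC1700010200.hg.1), read 6.22, 6.16 and 6.49 in g2_1 and 6.27, 6.31 and 6.37 in g3_4, against 9.71, 8.68 and 8.53 in control cells. The lowest control array exceeded the highest knockout array by about 2 log2 units. ALDOC fell by 2.67 (SE 0.22, adjusted p = 9.52e-06), a 6.36-fold fall with the clones averaged. ALDOA, the isozyme of muscle and most other tissues, averaged 12.53 ± 0.09 in g2_1, 12.65 ± 0.11 in g3_4 and 12.37 ± 0.32 in control cells (SD, n = 3 each), with a log2 fold change of 0.22 (SE 0.13) that did not pass. Of the other members of the upper chain, GPI, the phosphoglucose isomerase, had a value of 0.41 (SE 0.16, adjusted p = 0.105), and TPI1, the triosephosphate isomerase, of 0.17 (SE 0.18).

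In the lower chain, from triose phosphate to pyruvate, 1 of 6 members rose and 1 fell, where 18.0% of all transcript clusters were called. PGAM1, a phosphoglycerate mutase, read 11.71, 11.71 and 11.59 in g2_1 and 11.62, 11.54 and 11.50 in g3_4, against 11.49, 11.03 and 11.19 in control cells. The groups nearly met, at 11.50 and 11.49. The rise was 0.38 (SE 0.10, adjusted p = 0.0297), and the call was lost when any 1 of 6 arrays was left out, with adjusted p from 0.0576 without g3_4 array 2 to 0.137 without control array 2. The other arrays of that kind were g2_1 arrays 1 and 2, g3_4 array 1 and control array 3. ENO2, the neuronal enolase gene, read 7.38, 7.60 and 7.67 in g2_1 and 7.70, 7.66 and 7.49 in g3_4, against 8.45, 8.26 and 8.12 in control cells. It fell by 0.69 (SE 0.10, adjusted p = 8.54e-04), and its groups stood clearly apart. ENO1, the general enolase gene, had a log2 fold change of -0.00 (95% interval -0.17 to 0.16), and GAPDH, whose enzyme oxidises glyceraldehyde 3-phosphate, of 0.04 (-0.13 to 0.20). PGK1, the first enzyme of the chain to yield ATP, had -0.16 (SE 0.15), and PKM, which makes pyruvate, 0.23 (SE 0.11). Several of these genes have processed pseudogenes, and whether their probes read such copies is not known here.

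At the fate of pyruvate, PDK3 fell while the lactate dehydrogenase genes did not pass with the clones averaged. PDK3, which encodes a kinase that switches off pyruvate dehydrogenase (TC0X00006816.hg.1), read 6.20, 6.20 and 5.52 in g2_1 and 5.81, 5.78 and 5.89 in g3_4, against 8.58, 7.58 and 7.50 in control cells. All knockout arrays were lower by more than 1 log2 unit. PDK3 fell by 1.99 (SE 0.23, adjusted p = 1.47e-04), a 3.96-fold fall. PDK1, a kinase of the same enzyme that HIF is known to induce, averaged 8.04 ± 0.20, 8.21 ± 0.25 and 8.17 ± 0.29 (SD, n = 3 each) in g2_1, g3_4 and control cells. LDHA, whose product reduces pyruvate to lactate, was called in g2_1 at 0.43 (adjusted p = 0.046), not in g3_4 at 0.25 (adjusted p = 0.263) and not with the clones averaged at 0.34 (adjusted p = 0.0578). LDHB, the other main subunit, had -0.19 (SE 0.08, adjusted p = 0.158), although each knockout array read lower than each control array.

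Among the HIF alpha subunits and their sensors, EPAS1 had the largest fall of all members. EPAS1, which encodes HIF-2 alpha (TC0200007458.hg.1), read 4.78, 4.84 and 4.66 in g2_1 and 4.84, 4.93 and 4.94 in g3_4, against 8.36, 7.39 and 7.01 in control cells. The knockout values lie close to the array floor, which bounds the size of the fall. EPAS1 fell by 2.76 (SE 0.23, adjusted p = 1.08e-05), a measured 6.75-fold that may understate the change. The 50 nearest genes on the chromosome with a level above the array median had a median log2 fold change of -0.34, the lowest such median among the 13 called members, for which the others ran from -0.14 to 0.11. HIF1A, the gene of HIF-1 alpha, averaged 10.19 ± 0.05 in g2_1, 10.12 ± 0.08 in g3_4 and 10.38 ± 0.26 in control cells (SD, n = 3 each), a change of -0.22 (SE 0.11, adjusted p = 0.219). EGLN1, the main oxygen-sensing prolyl hydroxylase gene, had 0.04 (SE 0.08), and EGLN3, a related hydroxylase gene that HIF induces, had -0.14 (SE 0.09) at means of 4.66 to 4.84, near the first quartile in all groups.

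The other hypoxia-induced genes did not move as a block. Of 9 measured, 3 rose, 2 fell and 4 did not pass with the clones averaged, where 8.13% of all transcript clusters rose and 9.83% fell. BNIP3, which encodes a receptor for the removal of mitochondria (TC1000012329.hg.1), read 5.85, 5.67 and 5.60 in g2_1 and 5.87, 5.64 and 5.49 in g3_4, against 7.64, 6.69 and 7.01 in control cells. It fell by 1.43 (SE 0.18, adjusted p = 2.44e-04), a 2.69-fold fall that every knockout array showed. Its relative BNIP3L had a log2 fold change of 0.12 (SE 0.13). P4HA1, a subunit of collagen prolyl 4-hydroxylase, read 7.80, 8.12 and 7.88 in g2_1 and 7.69, 8.21 and 7.83 in g3_4, against 8.32, 8.68 and 8.40 in control cells. It fell by 0.55 (SE 0.13, adjusted p = 0.0152), and the groups lay close at 8.21 and 8.32. Without control array 2 the value was -0.44 (adjusted p = 0.0791).

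NDRG1, a stress-response gene induced by low oxygen and iron loss, rose. It read 7.80, 7.81 and 7.45 in g2_1 and 7.62, 7.73 and 7.65 in g3_4, against 6.88, 7.02 and 7.28 in control cells. The rise was 0.62 (SE 0.11, adjusted p = 0.00327), with all knockout arrays above the highest control array. MXI1, which encodes an antagonist of MYC, read 9.98, 9.96 and 9.85 in g2_1 and 10.08, 10.12 and 10.07 in g3_4, against 8.70, 9.66 and 9.59 in control cells. Its rise was 0.69 (SE 0.18, adjusted p = 0.0208), and without control array 1 it was 0.39 (adjusted p = 0.00973). KDM3A, a histone H3 lysine demethylase gene, read 7.96, 7.84 and 8.03 in g2_1 and 7.79, 8.18 and 8.11 in g3_4, against 6.62, 7.76 and 7.53 in control cells. The control array 2, at 7.76, and the lowest knockout array, at 7.79, nearly met. The value was 0.68 (SE 0.21, adjusted p = 0.0463), and without control array 1 it was 0.34 (adjusted p = 0.0846).

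The KDM3A call was also lost when any of 6 other arrays was left out, namely g2_1 arrays 1, 2 and 3, g3_4 arrays 2 and 3 and control array 3, with adjusted p from 0.052 to 0.0975. VEGFA, the gene of the main angiogenic growth factor, averaged 9.32 ± 0.25 in g2_1, 9.33 ± 0.27 in g3_4 and 9.86 ± 0.48 in control cells (SD, n = 3 each). Its value of -0.53 (SE 0.20, adjusted p = 0.0943) did not pass. ADM, which encodes the vasodilator peptide adrenomedullin, had 0.24 (SE 0.13), and ANKRD37, an ankyrin-repeat gene induced by HIF, had -0.08 (SE 0.10).

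Between g2_1 and g3_4, 0 of the 34 members were called in limma and 0 in the test with unequal variances. Those at an unadjusted p under 0.05 were 1 and 2. Of all transcript clusters, 11 (0.0526%) were called in limma and 0 in the test with unequal variances. With the array number as a block the members called were again 0, with a lowest adjusted p of 0.46 for PFKM, and those of all transcript clusters 27 (0.129%). The differences and intervals that follow are from the fit without a block. The median absolute difference between the clones was 0.10 log2 units, and the largest was that of PFKM. All 34 intervals (95%) of the difference lay within 1 log2 unit of 0 on either side, the widest being that of PFKP, from -0.56 to 0.75. A smaller difference is not excluded by these arrays. The arrays of the clones did not overlap for 8 members, against 11.5% of all transcript clusters.

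The control SD exceeded the SD of both clones for 29 of 34 members and for 48.4% of all transcript clusters. The median SD of the members was 0.11 in g2_1, 0.11 in g3_4 and 0.29 in the control, where it was 0.12, 0.12 and 0.16 over all transcript clusters. Control array 1 was the farthest from the median of its group for 25 members, and for 47.1% of all transcript clusters. In g3_4, array 1 was the farthest for 18 members and for 42.8% of all transcript clusters. In g2_1 it was array 1 for 14 members and array 3 for 15, with 38.5% and 32.4% of all transcript clusters. Of the called members, PFKP, ALDOC, PDK3, EPAS1, BNIP3, ENO2 and PGAM1 were highest on control array 1 among the control arrays. KDM3A, MXI1, PFKL, NDRG1 and P4HA1 were lowest on it, and SLC2A1 was neither. Of the other members, HK1, HK2, GPI, PFKM, ALDOA, TPI1, GAPDH, PGK1, ENO1, PKM, LDHA, LDHB, EGLN3, ADM and ANKRD37 were highest. SLC2A3, PDK1, HIF1A, EGLN1, VEGFA and BNIP3L were lowest. HK1, HK2, GPI, ALDOA, TPI1, PKM and BNIP3 were highest on the array numbered 1 in all 3 groups, a pattern of 11.0% of all transcript clusters, and those are the arrays with the RNA integrity number of 10. The part of RNA integrity in these values was not tested.

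Without control array 1, 20 members were called with the clones averaged, 11 higher and 9 lower, and 12 of the 13 calls were kept, KDM3A being lost. The share of all transcript clusters called was then 17.8%. The members gained were GPI at 0.64 (adjusted p = 0.00221), HK1 at 0.44 (adjusted p = 0.0316), LDHA at 0.44 (adjusted p = 0.0176), TPI1 at 0.43 (adjusted p = 0.0499), ALDOA at 0.41 (adjusted p = 0.0124), PKM at 0.38 (adjusted p = 0.00957), HIF1A at -0.34 (adjusted p = 0.0462) and VEGFA at -0.81 (adjusted p = 0.00381). With array 1 of each group left out, 18 members were called, 10 higher and 8 lower, beside 17.3% of all transcript clusters. HK1 at 0.36 (adjusted p = 0.0576), HIF1A at -0.31 (adjusted p = 0.0994) and PFKL at 0.36 (adjusted p = 0.0849) were then not called. TPI1 was called at 0.31 (adjusted p = 0.0469) and KDM3A at 0.40 (adjusted p = 0.0368). The 5 largest falls were smaller without control array 1 and stayed called, with EPAS1 at -2.37, ALDOC at -2.30, PDK3 at -1.64, PFKP at -1.61 and BNIP3 at -1.16.

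**Figure D3:**
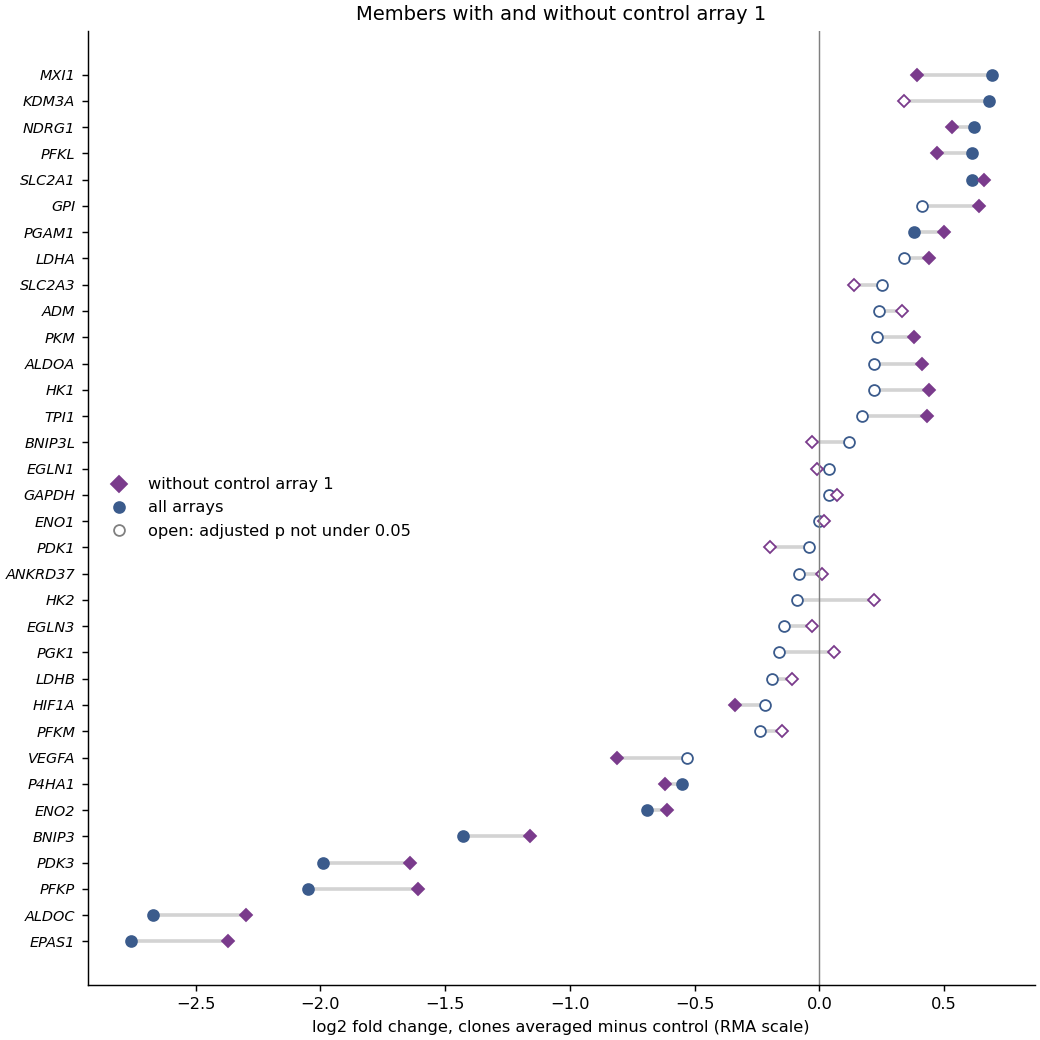
Log2 fold change of each member with the clones averaged against control, without control array 1 (diamonds) and with all 9 arrays (circles). Open symbols have an adjusted p that is not under 0.05. GPI, LDHA, PKM, ALDOA, HK1 and TPI1 moved up and became called without that array, while KDM3A and MXI1 moved towards 0.

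The list of members leaves out many genes of the same pathways, and 89 of 100 further genes were measured. With the clones averaged, 9 of the 89 rose and 8 fell, with a median log2 fold change of 0.07 over the list and 0.04 over all transcript clusters. That is 19.1% of the list called, beside 18.0% of all transcript clusters. With the low-signal transcript clusters dropped, 57 of the list remained, of which 13 rose and 5 fell, where 30.3% of those kept were called. With each array centred on its median, 20 of the 89 rose and 7 fell, where 24.8% of all transcript clusters were called. In the test with unequal variances only MPC1 passed (adjusted p = 0.0327).

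Around the entry of pyruvate into mitochondria, 3 genes fell and 1 rose of 12, where 9.83% of all transcript clusters fell and 8.13% rose. PDP1, which encodes a phosphatase that switches pyruvate dehydrogenase back on, read 4.40, 4.13 and 4.08 in g2_1 and 4.24, 4.23 and 4.13 in g3_4, against 7.19, 6.28 and 5.56 in control cells. It fell by 2.14 (SE 0.27, adjusted p = 2.29e-04), with the knockout arrays under the first quartile of the arrays. PDHA1, a catalytic subunit gene of pyruvate dehydrogenase, averaged 9.09 ± 0.03, 9.13 ± 0.10 and 9.87 ± 0.16 (SD, n = 3 each) in g2_1, g3_4 and control cells, a fall of 0.76 (adjusted p = 1.79e-04). MPC1, a subunit gene of the mitochondrial pyruvate carrier, averaged 9.44 ± 0.17 in g2_1, 9.49 ± 0.12 in g3_4 and 10.00 ± 0.08 in control cells (SD, n = 3 each) and fell by 0.53 (adjusted p = 0.00304). DLAT, another subunit gene of the pyruvate dehydrogenase complex, named after its values were seen, rose by 0.30 (SE 0.08, adjusted p = 0.0233). The 8 others ranged from -0.48 for SLC16A7 to 0.14 for PDHX and did not pass, PDHB, DLD and PDK2 among them.

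Among the HIF partners and sensors outside the members, 2 of 13 rose and 0 fell, where 8.13% of all transcript clusters rose and 9.83% fell. CITED2, which encodes a competitor of HIF for the coactivators it binds, read 12.11, 12.25 and 12.20 in g2_1 and 12.05, 11.98 and 12.04 in g3_4, against 10.30, 10.83 and 11.31 in control cells. The control arrays ranged over 1 log2 unit and all lay lower. CITED2 rose by 1.29 (SE 0.17, adjusted p = 3.72e-04). Of 28 further hypoxia-induced genes, 4 rose and 4 fell, which is 28.6% called beside 18.0% of all transcript clusters. TFRC, the transferrin receptor gene of iron uptake, rose by 0.86 (SE 0.11, adjusted p = 2.10e-04) where its 50 neighbours had a median of 0.39. PLOD2, a collagen lysyl hydroxylase gene, rose by 0.59 (SE 0.09) and MIF, a cytokine gene, by 0.56 (SE 0.13). BHLHE41, a transcriptional repressor gene, fell by 1.71 (SE 0.16, adjusted p = 2.85e-05), to means of 4.31 in g2_1 and 4.40 in g3_4, against 6.06 in control cells. TMEM45A fell by 0.69 (SE 0.17, adjusted p = 0.0138), with means of 4.02 in g2_1 and 4.07 in g3_4, against 4.73 in control cells. All of these lie near or under the array floor.

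In glycogen and sugar handling, PYGL, the liver glycogen phosphorylase gene, read 9.98, 9.79 and 9.78 in g2_1 and 9.65, 9.76 and 9.50 in g3_4, against 8.49, 8.65 and 9.14 in control cells. It was the 1 gene of 14 on glycogen and the pentose phosphate pathway that rose, by 0.98 (SE 0.14, adjusted p = 4.91e-04). BPGM, which makes 2,3-bisphosphoglycerate, rose by 0.63 (SE 0.13, adjusted p = 0.00619). SLC2A6, a sugar transporter gene, fell by 1.40 (SE 0.31, adjusted p = 0.00905), with control arrays at 7.90, 6.06 and 6.47 that differed by more than the fall itself. The 7 regulators of glycolytic flux, such as PFKFB3 and TIGAR, had log2 fold changes from -0.25 to 0.17, and the lowest adjusted p was 0.123, that of PFKFB2.

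**Figure D4:**
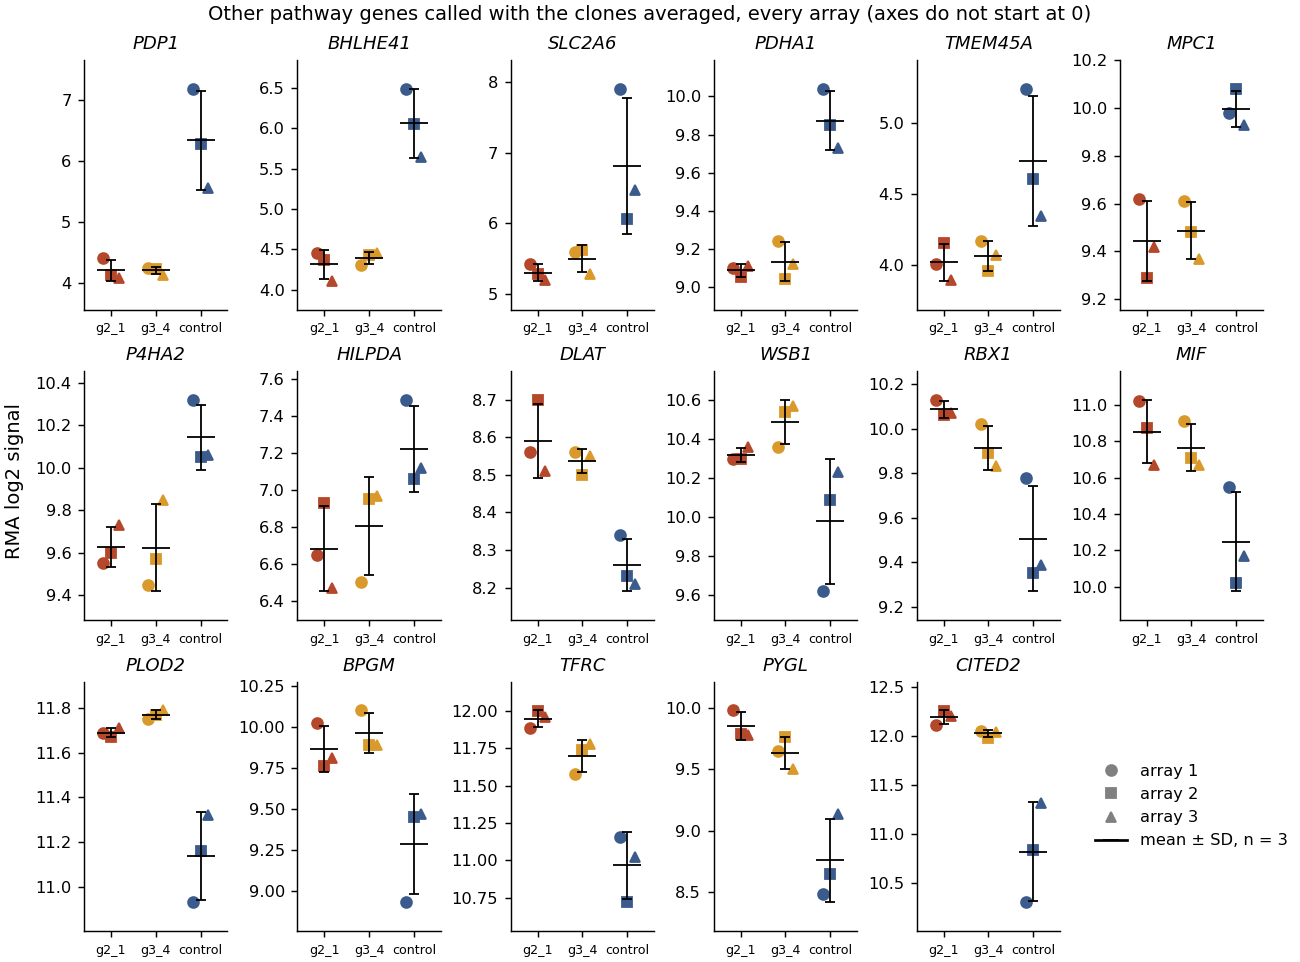
RMA log2 signal on every array for the 17 further pathway genes called with the clones averaged, from the largest fall (PDP1) to the largest rise (CITED2). Symbols mark the array number, bars give the mean and SD of 3 arrays, and the axes do not start at 0. The 6 knockout arrays lie on 1 side of the control arrays in every panel.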

How the data were processed

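Values were the authors' deposited RMA log2 signal per transcript cluster of 9 Clariom S arrays, for which the submitters' processing notes name RMA and version 4.0 of Transcriptome Analysis Console. RMA aligns probe-level distributions by quantiles, which takes out much of a shift shared by most genes, but the deposited array medians still differed, from 6.15 to 6.29. Raw intensities, detection calls and slides were not used here, and the number of arrays limits the precision. The deposited values were tested without further normalization.

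Of 21448 transcript clusters, 555 whose identifiers carry an unmapped label were left out and 20893 were tested. Gene symbols came from the platform annotation, which gave 1 symbol for 17705 tested transcript clusters and none for 3188. All groups entered 1 model in limma 3.58.1 (R 4.3.3), with a moderated test and Benjamini-Hochberg adjustment over all tested transcript clusters. Comparisons were each clone minus control, the clones averaged minus control, and g2_1 minus g3_4, at an adjusted p under 0.05. The procedure was tested on simulated data. Alternatives were other filters, centring, a replicate block, other variance models, the groups compared alone, a fold minimum and leaving out arrays.

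The deviations of same-numbered arrays from their group means correlated at 0.435, 0.191 and 0.31 between the clones. The numbers were therefore read as possibly pairing the clones, from the data and not from a label. The main fit did not use this pairing, which entered only in the alternative with a replicate block. Members, pathway lists and marker lists were chosen with earlier results of these data known. Members were all described. Of the further pathway genes, up to 6 called in each direction with the largest changes were named, with examples of those not called. The printed promoters are those of called members with a single window in the RefSeq table that rose, or fell by at least 1 log2 unit, and 30 members had a window.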

Additional observations from a re-analysis of the deposited data

How the results depend on the processing

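Of 967 single-gene values under the alternatives, 846 stayed on the same side of the threshold, 110 fell short of it, 11 came to pass it and 0 changed sign as calls. The direction of values called in neither fit was not compared. The 846 include differences between the clones, which were not called in the main fit, and some of these changed sign. That of PFKL ran from -0.1 to 0.11. In the test with unequal variances 0 members were called in g2_1, 0 in g3_4 and 0 with the clones averaged (8, 9 and 8 at an unadjusted p under 0.05). With the clones averaged, 1 further pathway gene was called. Of all transcript clusters this test called 31 (0.148%) in g2_1, 65 (0.311%) in g3_4 and 462 (2.21%) with the clones averaged. With a change of at least 1 log2 unit added, 5, 5 and 5 members and 4 further genes were called. With the groups compared alone, 8 members were called in g2_1 (1 higher) and 8 in g3_4 (2 higher), against 12 and 12, and 11.2% and 11.0% of all transcript clusters. Centring gave 27 further genes, 20 higher and 7 lower, against 17 (9 and 8), where 24.8% of all transcript clusters were called with the clones averaged, against 18.0%. With the replicate block 13, 15 and 16 members, 0 between the clones and 23 further genes (15 higher, 8 lower) were called, where the share of all transcript clusters was 18.3% in g2_1, 18.0% in g3_4 and 21.9% with the clones averaged. The block gained GPI (adjusted p = 0.0247), LDHA (adjusted p = 0.0402) and VEGFA (adjusted p = 0.00373) with the clones averaged. The correlation of same-numbered deviations was 0.0426 to 0.285 between g2_1 and control and 0.0565 to 0.298 between g3_4 and control. The numbers were not treated as pairing there because the values for array 2, 0.0426 and 0.0565, were low. Array 1 gave 0.285 and 0.298 and array 3 gave 0.183 and 0.257, in g2_1 and g3_4 in turn. Beyond the block, an effect of the array number shared with the control was not tested.

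Leaving out arrays gave 7 to 15 members in g2_1, 8 to 15 in g3_4, 11 to 20 with the clones averaged, 0 between the clones and 15 to 21 further genes. The share of all transcript clusters was then 9.95% to 14.9% in g2_1, 10.1% to 15.1% in g3_4 and 14.9% to 17.8% with the clones averaged. Between the clones it was 0.0191% to 0.215%. The 7 members in g2_1 arose without g2_1 array 1, g2_1 array 3 or g3_4 array 3. SLC2A1, MXI1, NDRG1, PFKP, ALDOC, ENO2, PDK3, EPAS1 and BNIP3 stayed called with the clones averaged when any 1 array was left out. With 3 arrays a group and control array 1 apart from the others, small changes are not settled. Levels near the array floor bound the falls of EPAS1, PDP1, BHLHE41 and TMEM45A, and TMEM45A lay near that floor in control cells too.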
